A study of Mus musculus with 4 samples.

Results

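The nuclear genes for the mitochondrial ribosome and for respiratory complex I were examined for CTCF binding at their ends. Members were the protein-coding RefSeq genes on autosomes whose symbol starts with Mrpl or Mrps and a digit, or with Nduf. There were 125 of them among 20560 autosomal protein-coding genes, 78 for ribosomal proteins (29 Mrps, 49 Mrpl) and 47 Nduf genes. Of the Nduf genes, 7 were listed as core subunits of complex I, 32 as accessory subunits and 8 as assembly factors. The accessory list goes by name and holds Ndufa4 and its relative Ndufa4l2, whose place in complex I is not settled by the name. The series holds 2 samples of CTCF chromatin immunoprecipitation and sequencing and 2 input samples. All 4 came from whole testes of F1 mice of a B6 by CAST cross, and the labels give no age, treatment or engineered allele for either group. The values are those of 1 merged peak list of 51871 peaks. Which of the samples entered it is not given in the sources used here. With 1 list, no error between animals can be given. The read depth is unknown, and the signal of different testis cell types cannot be told apart. A peak list holds no expression values, so the tissue label could not be checked against marker genes.

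Mitochondria keep their own ribosome, which translates the few proteins encoded by mitochondrial DNA. Its proteins are encoded in the nucleus, mostly by genes named Mrps for the small subunit and Mrpl for the large. The subunit groups used here go by these names, which do not settle the place of every protein, as for Mrps30 and Mrps18a. Complex I, the NADH dehydrogenase of the respiratory chain, passes electrons from NADH to ubiquinone and pumps protons. Its core subunits hold the flavin and the iron-sulfur clusters, its accessory subunits surround them, and assembly factors help to build it. CTCF is a zinc-finger protein that binds a long DNA motif, stops loop extrusion by cohesin and also occupies many promoters.

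A gene counted as bound when a peak summit lay within 1 kb of either annotated end. By this rule 72 of 125 members were bound, or 57.6% (exact Clopper-Pearson 95% interval 48.4 to 66.4), while among the other 20435 protein-coding genes 8206 were, or 40.2% (39.5 to 40.8). Over all autosomal protein-coding genes the share was 40.3%. The intervals cover counting error only, and no test was made of the difference. Ribosomal protein genes were bound at 47 of 78 (60.3%, interval 48.5 to 71.2) and Nduf genes at 25 of 47 (53.2%, interval 38.1 to 67.9). The strength of the bound ends was close to that of other genes. The median of the highest gene-end fold, the authors' enrichment over background at the summit, was 5.76 in the 72 bound members, with an exact interval of 5.29 to 7.52. It was 5.87 in the bound other genes, with an interval of 5.77 to 5.97. The middle 50% of the members ran from 4.37 to 8.49 and that of the other genes from 4.07 to 8.45. A gene-end fold of at least 10 was found in 13 of 125 members (10.4%, interval 5.65 to 17.1). Among other genes it was found in 1217 of 20435, or 5.96% (5.98% of all autosomal protein-coding genes). Among bound genes alone the shares were 18.1% in members and 14.8% in other genes.

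**Figure D1:**
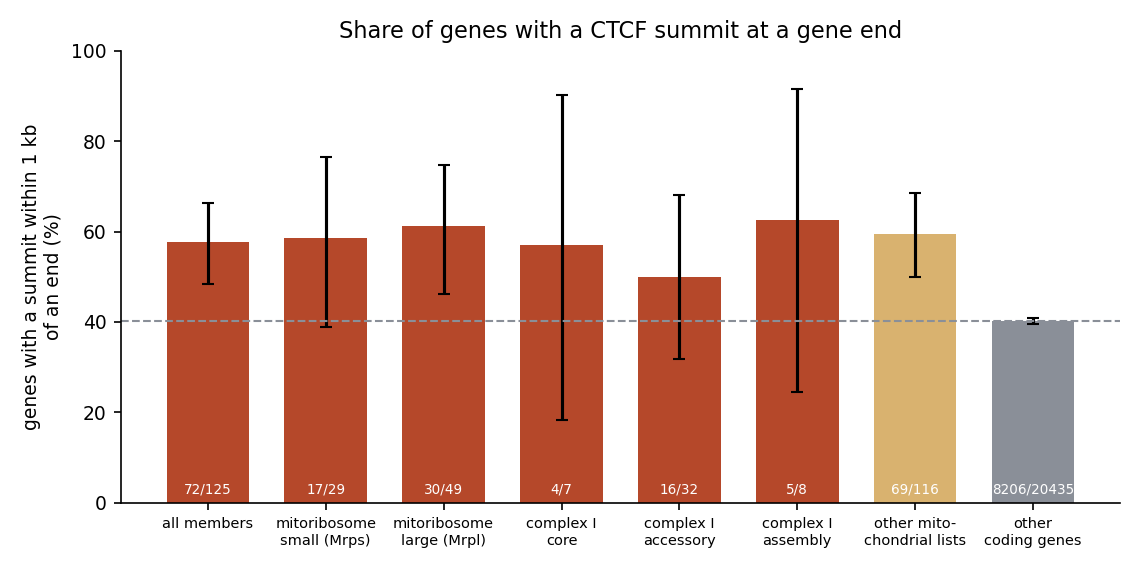
Percent of genes with a CTCF summit within 1 kb of an annotated end, for the 125 members, for each role, for 116 other mitochondrial genes and for the other protein-coding genes. Bars are shares, error lines exact 95% intervals for counting error, numbers in the bars bound and all genes, and the dashed line the 40.2% of other genes; every role lies at 50% or above, with wide intervals for core subunits (4 of 7) and assembly factors (5 of 8).

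The shares of the roles, with the ribosomal subunits taken by gene name, overlapped in their intervals. They were 58.6% for the small ribosomal subunit (17 of 29, interval 38.9 to 76.5), 61.2% for the large (30 of 49, 46.2 to 74.8), 57.1% for core subunits (4 of 7, 18.4 to 90.1), 50% for accessory subunits (16 of 32, 31.9 to 68.1) and 62.5% for assembly factors (5 of 8, 24.5 to 91.5). With groups this small, differences between roles were not detectable. The median fold of bound genes was 5.52 in the small subunit, 6.98 in the large, 7.54 in core subunits, 5.70 in accessory subunits and 7.10 in assembly factors.

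Genes grouped by name as small-subunit genes had folds from 1.99 to 12.9. The highest belonged to Mrps18b, whose peak on chromosome 17 (35916027 to 35917096, mm10) had its summit 372 bp upstream of the start site and a fold of 12.9. Mrps21 followed with 10.4, from a summit 595 bp beyond its far end and 9475 bp from its start site. Mrps26 (9.75), Mrps30 (9.05) and Mrps12 (8.34) completed the leading 5. The name of Mrps30 does not settle its subunit. Its fold of 9.05 came from a summit 717 bp from the far end, while the summit at the start site had 2.81. Mrps36, with 8.28, carries a ribosomal name although its human product is known as a part of the 2-oxoglutarate dehydrogenase complex. The lowest bound values were 3.15 at Mrps17 and 1.99 at Mrps6, whose −log10 q of 1.43 lay close to the lowest in the list, 1.308. Among the 12 genes without a gene-end summit, Mrps25 and Mrps22 had the farthest nearest summits, at 35.6 and 12.5 kb.

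Genes grouped by name as large-subunit genes ranged from 2.70 to 13.8. Mrpl2, for a protein near the catalytic centre of the ribosome, had the highest fold, 13.8, from a peak on chromosome 17 (46645634 to 46646433) with its summit 55 bp upstream of the start site. Mrpl21 had 13.2 near its far end on chromosome 19 (summit 3292184) and 3.8 at its start site. Mrpl38 had 11.4 (chromosome 11, summit 116139069). Mrpl1 had 11.2 and Mrpl58, which encodes a peptidyl-tRNA hydrolase built into the ribosome, had 10.1. In these last genes the bound end was the far one, 57089 and 9065 bp from the start site. The lowest were 2.85 at Mrpl32 and 2.70 at Mrpl28. Of the 19 unbound genes, Mrpl50 and Mrpl3 lay farthest from a summit, at 46.7 and 35.2 kb.

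Among core subunits of complex I, Ndufv2 and Ndufv1 had the highest folds. Ndufv2, for an iron-sulfur subunit, had a fold of 12 from a peak on chromosome 17 (66101419 to 66102375) 319 bp upstream of its start site. Ndufv1, for the subunit that holds the flavin and binds NADH, had 11 on chromosome 19 (4012489 to 4013324), 183 bp upstream. Ndufs7 and Ndufs8, for the iron-sulfur subunits next to the ubiquinone site, had 4.07 and 3.95. Ndufs1, for an iron-sulfur subunit of the same NADH-oxidising module as Ndufv1 and Ndufv2, and Ndufs3 were unbound, with nearest summits at 2.73 and 4.85 kb.

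Genes listed as accessory subunits were bound in 16 of 32 cases, at folds from 3.8 to 11.8, and in 15 of 30 without Ndufa4 and Ndufa4l2 (6.79). Ndufa3 led with 11.8 on chromosome 7 (3616721 to 3617290), followed by Ndufa2 with 10.4 on chromosome 18, Ndufa13 with 10.1, Ndufb10 with 9.22 and Ndufa12 with 7.31. Ndufab1, for the mitochondrial acyl carrier protein, had 7.09. Ndufa10 and Ndufb2 were the lowest bound, both at 3.8. The farthest of the unbound were Ndufa4, whose human protein was reassigned to cytochrome c oxidase, at 107 kb, and Ndufs4, whose loss in mice gives a model of Leigh syndrome, at 53.5 kb. Ndufb4b and Ndufb4c, short genes of 471 and 485 bp that share the Ndufb4 name, had nearest summits at 33.4 and 14.0 kb, and Ndufb4 itself at 11.3 kb. Whether reads could be placed uniquely among these copies was not examined. The X-linked Ndufa1 and Ndufb11, outside the autosomal rule, had no gene-end summit and lay 14.5 and 27.1 kb from one.

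Assembly factors held the strongest gene-end peak of all members. At Ndufaf8 on chromosome 11 a peak from 120100842 to 120101699 reached a fold of 15.6, at −log10 q 67.5, with its summit 847 bp beyond the far end, and a second summit 106 bp upstream of the start site had 11.2. Ndufaf6 had 7.87, Ndufaf3 7.10, Ndufaf4 5.37 and Ndufaf7 3.74. Ndufaf5, Ndufaf1 and Ndufaf2 were unbound, at 11.2, 2.94 and 1.48 kb from the nearest summit.

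**Figure D2:**
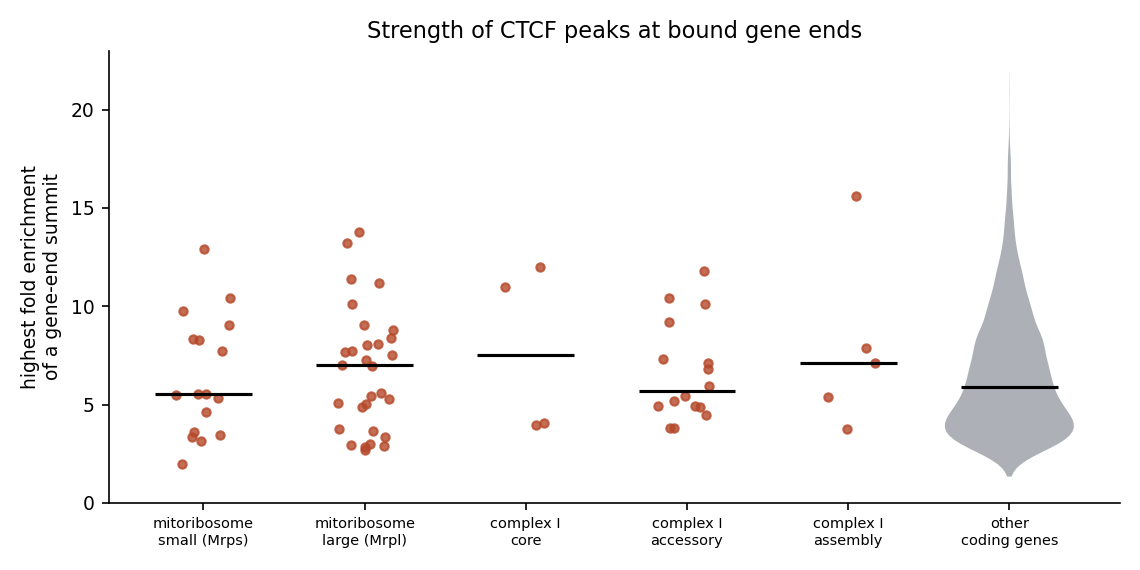
Highest fold enrichment of a gene-end summit in each bound gene, by role, beside the distribution over bound other protein-coding genes (violin). Points are genes and lines medians; the medians run from 5.52 to 7.54 in the roles against 5.87 in other genes, and the highest point is Ndufaf8 at 15.6.

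The bound members with the farthest nearest summit were Mrpl14 (576 bp), Mrps21 (595 bp), Mrpl23 (646 bp) and Mrpl48 (851 bp). Just outside the 1 kb limit lay Mrpl30 (1141 bp), Mrpl44 (1185 bp), Mrps31 (1189 bp) and Mrpl19 (1243 bp). The strongest summit of a gene could lie farther out than its nearest, as at Ndufaf8 (847 bp) and Mrps30 (717 bp). Bound members had their nearest summit at a median of 0.124 kb from an end, bound other genes at 0.172 kb. In the 53 unbound members the median was 6.39 kb, against 7.75 kb in unbound other genes, and 20 of the 53 (37.7%) lay over 10 kb away, against 43.7% of unbound other genes. By chromosome, 12 of 14 members were bound on chromosome 17 and 8 of 9 on chromosome 7, where 41.8% and 31.8% of other genes were bound. On chromosomes 2 and 1 it was 2 of 8 and 3 of 9 members, where 37.0% and 38.7% of other genes were bound. These chromosomes were picked after the counts were seen, and each holds few members.

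Strand and start sites were available for 109 of the 125 members in the RefSeq promoter table (GRCm38.p6, the same coordinates as mm10). The binding lay mostly at starts. A summit within 1 kb of the start site was found in 64 of 109 members (58.7%, interval 48.9 to 68.1), against 6036 of 16348 other genes (36.9%, interval 36.2 to 37.7) and 37.1% of all genes in the table. At the far end it was found in 12 of 109 members (11%, interval 5.82 to 18.4), against 9.11% of other genes and 9.13% of all. Of the 64 nearest start-site summits, 44 (68.8%) lay upstream, against 59.8% in other genes, and 45 (70.3%) lay within 250 bp, against 68.0%. The median position was 78.0 bp upstream in members and 45.0 bp upstream in other genes. The median start-site fold was 5.40, with an interval of 4.85 to 5.96, against 5.31 in other genes. The outer gene ends missed 4 start sites: Mrpl18, Mrps2, Mrps23 and Mrps31 had no gene-end summit, but their RefSeq start sites had one within 1 kb, with folds of 2.89, 4.29, 5.55 and 3.33. Such cases also occur among other genes. In the third of promoters richest in CpG, 3566 other genes had a start-site summit but only 3503 a gene-end summit. Their full number in other genes was not counted, so no share can be set beside that of members.

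**Figure D3:**
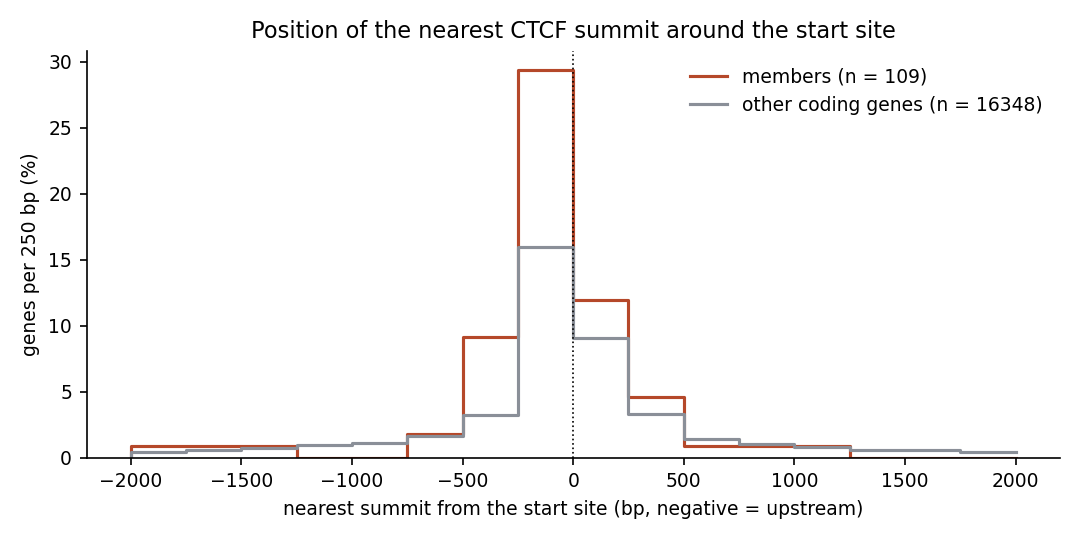
Signed distance from the start site to the nearest CTCF summit, as percent of genes per 250 bp, for 109 members and 16348 other genes. In the 250 bp just upstream of the start site lay the nearest summit of 29.4% of members and 16% of other genes.

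Summits near the far end and over 1 kb from the start site were few. They occurred in 11 of 109 members (10.1%) and 8.49% of other genes, with a median fold of 10.1 in members and 7.05 in other genes. In members 9 of the 11 (81.8%) had a fold of 8 or more, against 564 of 1388 in other genes (40.6%). The cutoff of 8 was not part of the plan, 11 is a small count, and no test was made. The 9 were at Ndufaf8 (15.6), Mrpl21 (13.2), Mrpl1 (11.2), Mrps21 (10.4), Ndufa13 and Mrpl58 (both 10.1), Mrps30 (9.05), Mrpl12 (8.79) and Mrpl22 (8.01). The other values were 5.94 at Mrpl45 and 3.67 at Mrpl10. Both ends had a summit in 8 members (6.40%, against 4.28% of other genes): Ndufa13, Ndufaf8, Mrpl21, Mrpl12, Mrpl34, Mrpl45, Mrpl10 and Mrps30. Mrpl34 is only 828 bp long, so the same summit reached both of its ends.

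Matches to the CTCF core with at most 1 mismatch were about as frequent in member promoters as in others, while looser matches were less frequent in members. In the 300 bases from 250 before to 50 after the start site, the 12-letter CTCF core consensus was searched on both strands, with at most 1 mismatch. It was found in 6 of 109 members (5.50%), against 4.78% of other promoters and 4.79% of all. All 6 start sites were bound, against 550 of 782 other promoters with a match (70.3%), and the motif centres lay 0 to 28 bp from a summit, with a median of 6 bp. The stretches around these matches are shown because they place a recognisable CTCF motif under the peak. They come from RefSeq (GRCm38.p6), read 5′ to 3′ along the strand of the gene, with the match in capitals. The match was exact in Ndufv1 and Ndufaf4, and in Mrpl34 and Ndufa6 it lay on the strand opposite to the gene.
Ndufv1 (chr19:4012907-4012958, minus strand): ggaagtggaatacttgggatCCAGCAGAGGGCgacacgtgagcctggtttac
Mrpl34 (chr8:71464769-71464820, plus strand): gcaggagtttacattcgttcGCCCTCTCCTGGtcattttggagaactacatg
Mrpl20 (chr4:155802781-155802832, plus strand): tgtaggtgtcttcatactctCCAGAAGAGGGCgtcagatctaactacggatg
Ndufa6 (chr15:82354410-82354461, minus strand): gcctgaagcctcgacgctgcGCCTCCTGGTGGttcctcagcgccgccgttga
Ndufaf4 (chr4:24898007-24898058, plus strand): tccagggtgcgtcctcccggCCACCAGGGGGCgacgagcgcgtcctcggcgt
Mrpl17 (chr7:105811237-105811288, minus strand): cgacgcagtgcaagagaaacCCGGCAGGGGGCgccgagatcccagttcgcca

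The start-site folds of these 6 genes were 11 at Ndufv1, 8.39 at Mrpl34, 5.56 at Mrpl20, 5.45 at Ndufa6, 5.37 at Ndufaf4 and 5.04 at Mrpl17. Their median of 5.50 stood beside 5.31 in the 58 bound members without such a match. In other genes the medians were 6.09 with a match and 5.25 without. No such match lay in the window of 58 of 64 bound member starts (90.6%) and of 90.9% of bound other starts, which says nothing of motifs outside the window. With at most 2 mismatches, the core was found in 23 of 64 bound member promoters (35.9%) and in 7 of 45 unbound ones (15.6%), against 40.7% of bound and 26.4% of unbound other promoters and 31.7% of all. The shorter stretch AGGNGGC, part of many CTCF motifs, was present on either strand in 20 of 64 bound (31.2%) and 4 of 45 unbound member promoters (8.89%), against 44.5% of bound and 26.7% of unbound other promoters and 33.2% of all. Over bound and unbound starts together, the core with at most 2 mismatches was found in 27.5% of member and 31.7% of other promoters. For AGGNGGC the shares were 22.0% and 33.3%, and no test was made. Searches for the core and for AGGNGGC overlap, since the stretch can be part of the core.

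Whole promoter windows are given for the member of each role with the strongest summit inside the window, and for the unbound member farthest from a summit, so that the bases under the summits can be compared. The sequences are RefSeq's (GRCm38.p6), 300 bases from 250 before the start site, read 5′ to 3′ along the strand of the gene. The 21 bases in capitals are centred on the summit, and Ndufa4 has none.
Mrps11 (chr7:78782881-78783180, plus strand): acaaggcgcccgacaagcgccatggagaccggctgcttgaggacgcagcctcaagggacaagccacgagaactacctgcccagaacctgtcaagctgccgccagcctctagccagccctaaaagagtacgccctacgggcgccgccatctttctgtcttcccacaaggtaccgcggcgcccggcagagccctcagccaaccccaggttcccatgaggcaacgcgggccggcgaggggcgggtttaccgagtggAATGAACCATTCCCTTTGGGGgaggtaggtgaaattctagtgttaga
Mrpl2 (chr17:46645971-46646270, plus strand): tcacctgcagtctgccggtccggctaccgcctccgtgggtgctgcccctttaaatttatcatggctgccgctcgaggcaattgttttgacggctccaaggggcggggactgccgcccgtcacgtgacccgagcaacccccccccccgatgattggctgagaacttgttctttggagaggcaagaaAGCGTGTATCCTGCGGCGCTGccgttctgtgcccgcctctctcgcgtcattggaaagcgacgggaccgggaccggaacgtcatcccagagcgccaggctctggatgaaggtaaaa
Ndufv1 (chr19:4012706-4013005, minus strand): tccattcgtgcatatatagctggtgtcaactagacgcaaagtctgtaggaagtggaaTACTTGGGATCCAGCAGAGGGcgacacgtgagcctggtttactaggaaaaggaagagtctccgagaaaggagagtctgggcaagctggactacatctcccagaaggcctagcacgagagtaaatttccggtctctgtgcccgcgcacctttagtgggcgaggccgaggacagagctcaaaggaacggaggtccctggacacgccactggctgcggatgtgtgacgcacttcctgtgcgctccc
Ndufb10 (chr17:24724374-24724673, minus strand): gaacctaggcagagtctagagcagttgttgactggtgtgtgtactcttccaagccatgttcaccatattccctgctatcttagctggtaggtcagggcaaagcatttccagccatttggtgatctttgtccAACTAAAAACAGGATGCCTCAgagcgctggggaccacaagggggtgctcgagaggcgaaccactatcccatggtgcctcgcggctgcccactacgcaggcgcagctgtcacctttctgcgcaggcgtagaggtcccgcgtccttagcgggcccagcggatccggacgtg
Ndufaf8 (chr11:120098684-120098983, plus strand): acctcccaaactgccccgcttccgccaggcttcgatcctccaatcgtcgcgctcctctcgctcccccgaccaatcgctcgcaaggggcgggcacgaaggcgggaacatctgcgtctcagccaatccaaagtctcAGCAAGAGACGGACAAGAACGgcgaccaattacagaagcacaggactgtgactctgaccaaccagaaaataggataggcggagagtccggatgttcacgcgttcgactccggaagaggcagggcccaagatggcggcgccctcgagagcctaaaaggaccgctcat
Ndufa4 (chr6:11907401-11907700, minus strand): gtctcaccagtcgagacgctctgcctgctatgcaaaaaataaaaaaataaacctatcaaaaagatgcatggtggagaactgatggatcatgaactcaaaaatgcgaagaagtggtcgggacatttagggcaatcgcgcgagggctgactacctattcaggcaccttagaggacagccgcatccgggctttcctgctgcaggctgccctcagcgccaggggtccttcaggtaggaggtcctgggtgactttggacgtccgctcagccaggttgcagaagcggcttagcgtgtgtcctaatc

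In these windows the fold was 7.73 at Mrps11 (summit 13 bp downstream of the start site), 13.8 at Mrpl2 (55 bp upstream), 11 at Ndufv1 (183 bp upstream), 9.22 at Ndufb10 (109 bp upstream) and 11.2 at Ndufaf8 (106 bp upstream). The best stretch of the window had 0 mismatches to the core in Ndufv1, 2 in Ndufb10 and 3 in Mrps11, Mrpl2 and Ndufaf8, and also 3 in the unbound Ndufa4. The strongest of these start-site peaks, at Mrpl2, therefore lay on a window without a close match. The ratio of observed to expected CpG was 0.730 in Mrps11, 0.912 in Mrpl2, 0.697 in Ndufv1, 0.609 in Ndufb10, 1.01 in Ndufaf8 and 0.668 in Ndufa4.

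Member promoters were rich in CpG, and the difference from other genes varied with it. The median CpG ratio of the window was 0.820 in members and 0.593 in other genes, with a median GC content of 59.0% and 56.7%. When all promoters were divided into 3 equal classes, no member fell in the low-CpG class, which held 33.6% of the other genes and where 12.9% of those were bound. In the middle class 26 of 44 members (59.1%, interval 43.2 to 73.7) were bound, against 43.1% of 5442 other genes (interval 41.8 to 44.5). In the high-CpG class the order was the opposite, with 38 of 65 members (58.5%, interval 45.6 to 70.6) against 64.6% of 5421 other genes (interval 63.3 to 65.9). Outside the low-CpG class the members' share exceeded that of other genes by 4.86 percentage points, against 18.6 points over all genes with a promoter entry. The median CpG ratio was 0.830 in bound and 0.802 in unbound members, and 0.789 in bound and 0.342 in unbound other genes. The division by CpG was chosen after the data were seen.

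**Figure D4:**
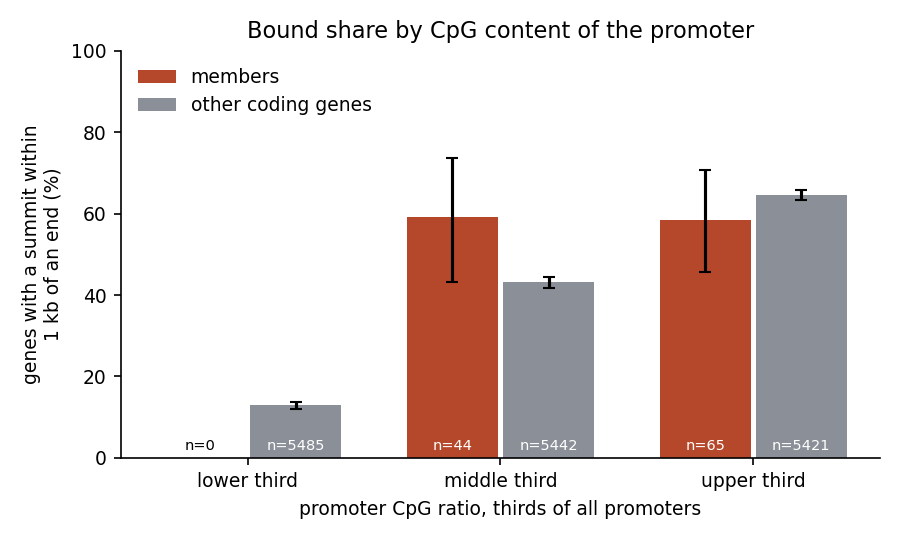
Percent of genes with a gene-end summit in 3 equal classes of promoter CpG ratio (boundaries 0.329 and 0.766), for members and other genes. Bars are shares with exact 95% intervals; members stand at 59.1% and 58.5% in the middle and high classes, other genes at 12.9%, 43.1% and 64.6%, and no member lies in the low class.

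Many of these genes are closely spaced with others. Another protein-coding gene had an end within 1 kb in 73 of 125 members (58.4%), against 25.4% of other genes. A head-to-head neighbour, with its start site within 1 kb on the opposite strand, was present for 37 of 109 members (33.9%), against 8.90% of other genes. Members with such a neighbour had a bound start in 21 of 37 cases (56.8%, interval 39.5 to 72.9) and members without in 43 of 72 (59.7%, interval 47.5 to 71.1). In other genes the shares were 69.1% with a head-to-head neighbour and 33.8% without, while no such difference was detectable among members. The median CpG ratio of other genes was also 0.854 with such a neighbour and 0.540 without, and in members 0.840 and 0.804. Spacing and CpG content were not told apart here, and their part in binding was not tested. The strongest summit of 31 of the 72 bound members (43.1%) also lay within 1 kb of an end of another gene, against 25.2% of bound other genes. The peaks of highest fold among these were shared by Mrpl2 with Klc4 (13.8), Mrps18b with Ppp1r10 (12.9), Ndufa3 with Oscar (11.8), Ndufa2 with Ik (10.4) and Ndufa13 with Yjefn3 (10.1). In each of these the binding cannot be assigned to a single gene.

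Some summits served a pair of members. Mrpl46 and Mrps11, a large- and a small-subunit gene arranged head to head on chromosome 7, shared a summit at 78783144 with a fold of 7.73. Mrpl47 and Ndufb5, a ribosomal and a complex I gene head to head on chromosome 3, shared one at 32736896 with a fold of 4.85. The 72 bound members therefore had 70 distinct strongest peaks. Ndufs6 and Mrpl36 on chromosome 13, also neighbours within 1 kb, were both unbound, at 9.12 and 13.5 kb from a summit. Mrps12 shared its peak (8.34) with Sars2, for a mitochondrial tRNA synthetase, and Mrpl43 its peak (2.87) with Twnk, for the mitochondrial DNA helicase.

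The median −log10 q of the strongest gene-end peak was 35.2 in bound members and 22.7 in bound other genes, with median widths of 574 and 578 bp. Among genes with a fold of 5 to 8 it was 36.6 in 25 members (middle 50% from 25.6 to 52.1) and 25.1 in 2610 other genes (16.8 to 46.4). At a fold of 8 or more it was 59.8 in 23 members and 54.4 in other genes. Below a fold of 5 the order was the opposite, with 4.93 in 24 members and 6.28 in other genes. The middle 50% of members and of other genes overlapped in all 3 ranges, and no test was made.

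**Figure D5:**
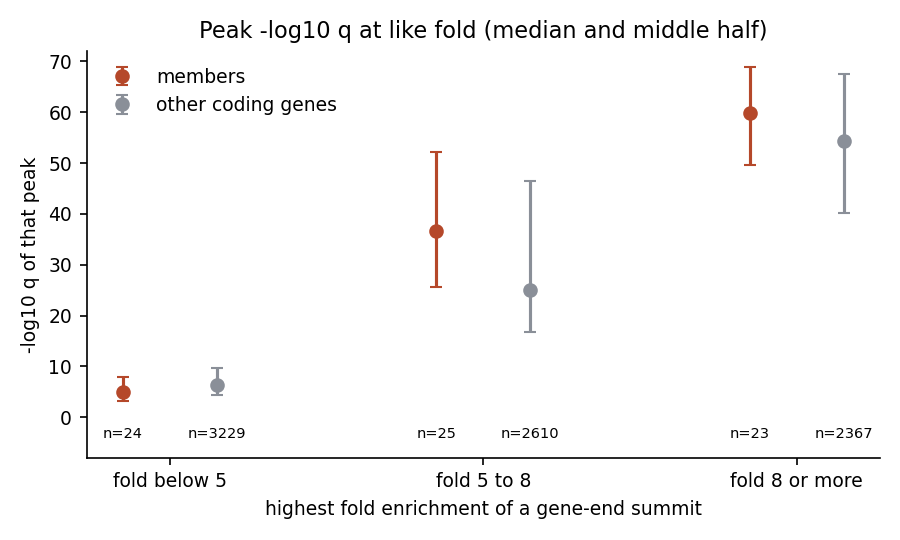
Deposited −log10 q of the strongest gene-end peak in 3 ranges of fold, for members and other genes. Points are medians and lines the middle 50% of genes; members stand at 4.93, 36.6 and 59.8, other genes at 6.28, 25.1 and 54.4.

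Sequence stretches known from promoters of mitochondrial genes were counted in the same windows, on both strands. CCGGAAG, the site type of ETS factors such as GABP, was present in 27.5% of member promoters, against 12.2% of other and 12.3% of all promoters. GCATGCG, part of the site of NRF1, was present in 11.9% of member promoters, against 4.54% of other promoters and 4.59% of all. ATGGCGG, part of the site of YY1, was present in 19.3% of member promoters, against 5.42% of other promoters and 5.51% of all. Within members, bound and unbound starts had similar shares for CCGGAAG (17 of 64, 26.6%, and 13 of 45, 28.9%) and GCATGCG (12.5% and 11.1%). ATGGCGG was found in 9 of 64 bound (14.1%) and 12 of 45 unbound starts (26.7%). In other genes all of these stretches were more frequent at bound starts, with 20.4% against 7.35% for CCGGAAG, 6.99% against 3.10% for GCATGCG and 8.76% against 3.46% for ATGGCGG. Each of these stretches contains a CG. The median CpG ratio was 0.820 in member and 0.593 in other promoters, and 0.789 in bound and 0.342 in unbound other genes. The shares were not compared at like CpG content, so its part in these differences was not tested. The matches describe letters only and show no binding of these factors.

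Other nuclear genes of mitochondrial translation and respiration were counted by the same rule. Of 116 such genes outside the naming rule, 69 were bound (59.5%, interval 50 to 68.5), beside 57.6% of members and 40.3% of all autosomal protein-coding genes, with a median fold of 5.77. These genes were not divided by promoter CpG. Among protein-coding genes other than members, 53.9% were bound outside the low-CpG class. Each single list is small, and complex II (1 of 4) and complex IV (6 of 16, 37.5%) lay below the share of all genes. In the respiratory chain, 1 of 4 complex II genes was bound (Sdhd, 2.99), 3 of 4 of its assembly factors (Sdhaf3, 7.82, and Sdhaf2, 5.85, highest), 6 of 9 complex III genes (Uqcr11, 10.8, and Uqcrq, 10.1), 6 of 16 complex IV genes (Cox5a, 13.0, and Cox7a2l, 6.54) and 9 of 16 complex V genes (Atp5d, 13.7, and Atp5e, 13.0). Complex I assembly factors without an Nduf name were bound in 6 of 8 cases, led by Foxred1 (9.66) and Timmdc1 (7.14). In mitochondrial translation, 3 of 5 ribosomal proteins without an Mrp name were bound, led by Aurkaip1 (9.80) and Gadd45gip1 (6.76). Ribosome assembly genes were bound in 11 of 16, led by the rRNA methyltransferase gene Mrm1 (14.5) and by Rbfa (12), and translation factors in 6 of 11, led by the elongation factor gene Gfm1 (8.21) and the release factor gene Mtrf1l (7.72). Mitochondrial tRNA synthetases were bound in 11 of 17, led by Cars2 (16.2) and Mars2 (13.6). Genes that maintain or transcribe mitochondrial DNA were bound in 7 of 10, led by Tfam, for the packaging factor of mitochondrial DNA (10.8), and Polg2, for a polymerase subunit (8.48).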

How the data were processed

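CTCF ChIP-seq libraries and inputs were made from frozen whole testes, crosslinked on thawing, per the labels' protocols. The genome build mm10 and the tools MACS2 2.2.7 and BWA 0.7.12 are listed, without their roles, in the submitters' processing notes. The authors deposited 1 merged peak list; its peak names read bio2 and merged, so which immunoprecipitated samples entered it is not given in the sources used here, nor is how reads of the CAST haplotype were treated. Per peak the authors deposited a score (not used), a fold enrichment (ratio), a −log10 q value and a summit offset, among other columns. Fold and −log10 q were used only within this list.

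Genes came from RefSeq (GRCm38.p6), promoters and strand from the RefSeq promoter table, with the outermost start site per gene. Genes starting below 3 Mb (105) were left out. Calls were checked on simulated data. Intervals are exact binomial at 95%, for medians from order statistics. No set test was made. The members, lists and named genes (per role the 5 highest and 2 lowest folds, the 2 farthest unbound; all bound at both ends; the top 5 shared summits; the top 2 per list; at most 6 promoters) were chosen with earlier results of these data known; Ndufs1, Ndufb4, Mrps36, Ndufab1, genes near the 1 kb limit or missed by gene ends, far-end genes, paired members and those with a core match were named after their values were seen. A result that the naming rule covers is not reported here. Of the list symbols, 2 had no autosomal entry under that name. Python 3.11.15, NumPy 2.4.6, pandas 2.3.3, SciPy 1.17.1 and Matplotlib 3.10.9 were used.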

Additional observations from a re-analysis of the deposited data

How the results depend on the processing

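Of 38 alternative shares and medians of members that could move, 22 stayed within the 95% interval of the main value and 16 moved beyond it. For 8 more, only the other genes changed, so the members' value was fixed. The members' share stayed above that of other genes in 14 of 15 alternatives, which are overlapping cuts of 1 peak list and not independent. The exception was the high-CpG class of promoters, with a difference of −6.16 percentage points; outside the low-CpG class it was 4.86 and, without genes with a close coding neighbour, 27.8. It was 4.44 at fold at least 10, where the members' interval of 5.65 to 17.1% took in the other genes' 5.96%. With a wider window of 2500 bp the share was 70.4% for members and 75.6% for ribosomal genes. Stricter peaks lower shares and raise medians by construction: at fold at least 5 the shares were 38.4% (members), 41.0% (ribosomal), 34.0% (Nduf) and 33.9% (start sites), with a median fold of 7.80; at fold at least 10 they were 10.4%, 8.97% and 12.8% for the first 3, with a median of 11.4; at −log10 q at or above the median they were 32%, 30.8% and 34.0%, with a median of 8.31. Counting a summit only for the gene with the nearest end gave 47.2% for members, against 35.9% for other genes. The CpG alternatives were added after the data were seen. No paired analysis was possible because 1 merged list holds no values of single samples, and for the same reason no replicate could be left out. The depth is unknown, so a gene end without a peak may still be bound below the detection limit.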
